A study of Homo sapiens with 14 samples.

Results

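The genes examined were the kinesin, myosin and cytoplasmic dynein motor genes of MDA-MB-231 cells, an established human triple-negative breast cancer line, with and without silencing of DAP5. They were taken by symbol, as names starting with KIF, MYO or MYH and a digit, or with DYNC or DYNL. Of 58432 symbols in the count table, 114 matched, 92 of them annotated as protein-coding and 22 as pseudogenes, antisense or other noncoding genes. A gene was described further when it had at least 50 counts in 2 or more of the 4 total mRNA libraries, which 57 of the 114 did. The other 57 were below that limit, and 18 of them had no count in any of the 14 libraries. The 57 comprise 55 motor chains together with KIF1BP, which encodes a kinesin-binding protein, and KIF9-AS1, an antisense gene that overlaps KIF9. The 55 motor chains are 46 heavy chains (27 kinesins, 17 myosins and 2 dyneins), 4 dynein intermediate or light intermediate chains and 5 dynein light chains. Just outside the limit, MYO1F had 41 and 25 counts in the shNSi cultures and 52 and 34 in the shDAP5 cultures, and KIF6 had 40 and 46 against 64 and 47. Just inside it, KIF9-AS1 had 66 and 51 counts in the shNSi cultures and 54 and 43 in the shDAP5 cultures, and KIF17 had 178 and 70 against 47 and 62.

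Cells carried a doxycycline-inducible pTRIPZ lentiviral shRNA, either non-silencing (MB-231-shNSi, 2 cultures) or directed against DAP5 (MB-231-shDAP5, 2 cultures), and all cultures received doxycycline at 1 µg/mL for 6 days. Both are stable lines, selected with puromycin and sorted for the red fluorescent reporter of the vector. RNA was sequenced from total mRNA, from light polysomes and from heavy polysomes of each culture, and from a moderate polysome pool of the shNSi cultures only. The shDAP5 light libraries are titled light but carry the code of the shNSi moderate pool, and the shDAP5 total libraries are titled total polysome, so whether the pools of the 2 lines cover the same gradient fractions cannot be told from the labels.

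Motor proteins turn ATP hydrolysis into movement. Kinesins and dyneins walk on microtubules, where kinesins carry cargo outward or, as mitotic motors, build and drive the spindle, and cytoplasmic dynein carries cargo inward. Myosins work on actin, in contraction, cell migration and membrane traffic. The motor domain sits in a long heavy chain, whereas the light chains of dynein and myosin are small proteins, so the mRNAs of a single machine can differ greatly in coding length. The 5 light chains described here are all of dynein, so most of the heavy chains belong to other machines.

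The coding sequence, counted without the stop codon, was 1995 to 13938 nucleotides long in the 46 heavy chains, with a median of 3990. In the 4 intermediate chains it was 1053 to 1914 nucleotides, and in the 5 light chains 267 to 348 nucleotides. The light chains DYNLL1 (GRCh38, chr12:120469850-120498493, plus strand) and DYNLL2 (chr17:58083415-58095536, plus strand) encode near-identical proteins of the same length, and their coding sequences are shown because the polysome values of the pair were far apart, as described below. Capitals mark the 55 positions, of 270, at which the pair differs, and 49 of these fall on the third position of a codon. How reads common to both genes were assigned is not stated.
DYNLL1: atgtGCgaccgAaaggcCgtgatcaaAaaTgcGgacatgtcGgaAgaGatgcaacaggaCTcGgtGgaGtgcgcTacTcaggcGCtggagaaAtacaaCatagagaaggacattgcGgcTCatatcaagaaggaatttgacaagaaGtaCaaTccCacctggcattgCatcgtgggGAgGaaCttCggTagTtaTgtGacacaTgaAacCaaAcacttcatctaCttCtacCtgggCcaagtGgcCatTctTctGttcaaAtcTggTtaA
DYNLL2: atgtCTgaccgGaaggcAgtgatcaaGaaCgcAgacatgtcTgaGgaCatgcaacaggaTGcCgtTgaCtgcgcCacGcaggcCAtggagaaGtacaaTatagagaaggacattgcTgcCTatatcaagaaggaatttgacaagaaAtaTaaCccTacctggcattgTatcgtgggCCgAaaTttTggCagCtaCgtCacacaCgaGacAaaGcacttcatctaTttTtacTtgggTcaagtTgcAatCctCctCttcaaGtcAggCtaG

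DAP5 takes part in the start of translation, so the start codon and its surroundings are also shown for 3 light chain mRNAs and 4 heavy chain mRNAs on which the results turn. Capitals mark the start codon, with 12 bases on each side.
DYNLL1: cctcaggtaaccATGtgcgaccgaaag
DYNLRB1: gatcggtcggaaATGgcagaggtggag
DYNLT1: gccggaggaaagATGgaagactaccag
MYH9: ctataagtcaccATGgcacagcaagct
MYO6: cctccttcaaaaATGgaggatggaaag
KIF11: gcggggaccgtcATGgcgtcgcagcca
DYNC1H1: gagcgcgacaccATGtcggagcccggg

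The base at position -3, counted back from the A of the start codon, was A or G in 53 of the 55 motor chains (96.4%), against 86.1% of the 12128 genes with such a window. G at position 4, directly after the start codon, was found in 33 motor chains (60%), against 52.8% of those genes. The light chains did not stand apart from the heavy chains in these letters, since 5 of 5 light chains and 44 of 46 heavy chains had a purine at position -3. Sequences and positions are from GENCODE v29 on GRCh38, whereas the reads were aligned to hg19.

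EIF4G2, the gene that encodes DAP5, checks the silencing. Its total mRNA was 1486 and 1431 CPM (counts per 1000000 counts of the library, scaled by TMM factors) in the shNSi cultures and 572 and 782 CPM in the shDAP5 cultures. Both silenced cultures were below both controls, and the log2 fold change was -1.11 ± 0.18 (SE, adjusted p = 0.0172, edgeR quasi-likelihood test). The direction held in every alternative, but the call was lost without shDAP5 replicate 1, with all libraries in 1 fit, with an offset for coding length, and with library-size scaling or limma.

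The 14 libraries held 25899838 to 30795910 counts. No pair of replicate libraries agreed within sampling noise, with a chi-square per degree of freedom of 140.5 for heavy, 176.87 for light, 277.06 for moderate and 45.72 for total libraries of the shNSi cultures, and of 79.8, 39.24 and 32.67 for heavy, light and total libraries of the shDAP5 cultures. The study describes its replicates as independent, but the labels do not say how the 2 cultures of a line were kept apart, so p-values measure the spread between these cultures, which may be technical. In bulk libraries a lower level in every cell and a lower level in part of the cells cannot be told apart. Of the markers of a mesenchymal-like breast line, VIM had at least 24560 counts in every library, CD44 at least 3378 and AXL at least 10640, while the receptor genes ESR1 and PGR had at most 16 and 0. Markers of other cell types were at or near 0, with at most 7 counts for PTPRC, 24 for CD68, 1 for CDH5, 3 for ALB and 11 for DES. CDH1 had at most 8 counts and EPCAM 76 to 169.

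Per kilobase of transcript, 3 of the 5 light chains had the highest total mRNA levels. DYNLL1 stood at 496 CPM per kilobase over the 4 total mRNA libraries, DYNLRB1 at 420 and DYNLT1 at 127. The other light chains, DYNLL2 at 20.7 and DYNLT3 at 7.26, ranked 19 and 32 among the 55. Among heavy chains MYH9, the heavy chain of non-muscle myosin IIA, was highest at 106 CPM per kilobase, ahead of KIF2C, a microtubule depolymerase of mitosis, at 70.2 and MYO1C, a membrane-linked class I myosin, at 66.2. The lowest of the 55 were MYO5B at 0.533 and MYO7B at 0.419 CPM per kilobase.

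Total mRNA was compared first, to ask whether silencing altered the abundance of motor mRNAs. Of the 55 motor chains, 1 passed the test, against 0.354% of the 14992 genes tested in either direction, 0.267% lower and 0.0867% higher, and 5 had an unadjusted p under 0.05, as did 1799 of the 14992 genes. That gene was MYH9, with 997 and 1073 CPM in the shNSi cultures and 539 and 604 CPM in the shDAP5 cultures. Its level fell in both silenced cultures, by 0.86 on the log2 scale (SE 0.165, adjusted p = 0.0383). The call was lost without shDAP5 replicate 1, without shNSi replicate 2 (where KIF17 was called instead), with all libraries in 1 fit, with the length offset, and with library-size scaling or limma. The median log2 change was 0.01 for the heavy chains, 0.07 for the light chains and 0.01 for all genes. MYO7B, an epithelial brush border myosin, was at 5.11 and 2.92 CPM against 1.60 and 1.63 CPM, and KIF17, a transport kinesin, at 6.31 and 2.62 CPM against 1.79 and 2.19 CPM. For both genes the silenced cultures lay below the controls without passing the test, with adjusted p-values of 0.146 and 0.255. MYO7B met the 50-count limit only through the shNSi cultures, with 144 and 78 counts against 42 and 46, so its lower level is part of its selection. KIF17, with 178 and 70 counts against 47 and 62, reached 50 in both shNSi cultures but not in both shDAP5 cultures. Its lower level is likewise bound up with its selection.

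Heavy polysomes, which the study defines by at least 4 ribosomes on an mRNA, gave a different picture. Whether the pools of both lines kept to that definition cannot be told from the labels. Of the 55 motor chains, 34 fell and 3 rose, against 30.9% of 14270 genes called in either direction, 16.7% lower and 14.2% higher. Among heavy chains 31 of 46 fell and 1 rose, among intermediate chains 3 of 4 fell, and among light chains 2 of 5 rose and none fell, while 3 light chains did not pass. The heavy chains that fell include MYO7B and KIF17, whose higher shNSi counts were part of their selection. Of all genes with coding sequences under 500 nucleotides 58.8% rose, and of those in length bins from 2000 nucleotides up 35.3% to 61% fell. The median log2 change was -1.07 for heavy chains, -0.88 for intermediate chains and 0.74 for light chains, beside 0.09 for all genes. When the shNSi moderate counts were added to the shNSi heavy counts to form the control, 2 motor chains were still called lower, MYH9 and MYO6, and 0 higher. With a culture left out, its line has 1 library of each kind, which is assumed to vary like the other groups. None was called without shDAP5 replicate 2, and 12 were called lower without shNSi replicate 2. Of all genes, 421 of 15184 were called with the moderate counts added, 2 of 14891 without shDAP5 replicate 2 and 2106 of 14957 without shNSi replicate 2. With an offset for coding length 5 motor chains were lower and 2 higher, and 1467 of 12133 genes were called. With library-size scaling 14 were lower and 4 higher, and 3643 of 14270 genes were called.

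**Figure D1:**
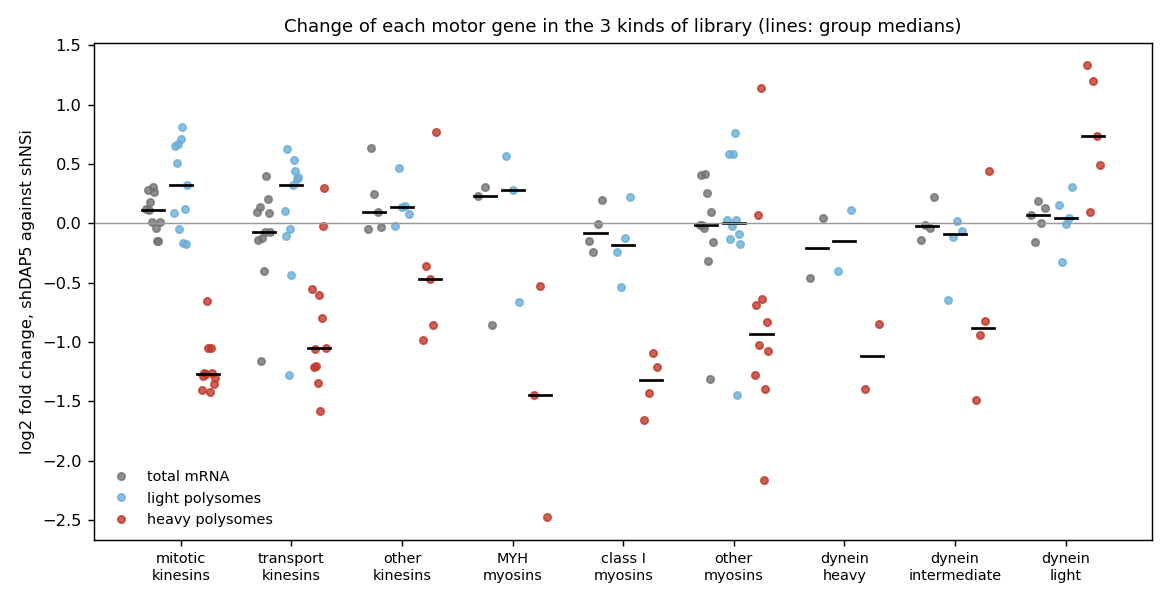
Log2 fold change of each motor gene, shDAP5 against shNSi, in total mRNA (gray), light polysomes (blue) and heavy polysomes (red), by group, with black lines for group medians. The heavy polysome values of mitotic kinesins all lie below 0, with a median of -1.27, and those of dynein light chains all lie above 0, with a median of 0.74, while the total mRNA values cluster around 0.

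The myosins held the largest falls in heavy polysomes. MYH9 mRNA was at 856 and 1757 CPM in heavy polysomes of the shNSi cultures and at 285 and 185 CPM in those of the shDAP5 cultures. The 4 values do not overlap, and the log2 change was -2.48 ± 0.397 (SE, adjusted p = 3.44e-07). MYO6 (GRCh38, chr6:75749192-75919537, plus strand), the myosin that moves toward the minus end of actin, was at 77.4 and 84.0 CPM against 24.4 and 11.6 CPM. Its log2 change was -2.16 ± 0.346 (adjusted p = 3.29e-07). MYH10, the heavy chain of non-muscle myosin IIB, fell by 1.45 and MYO1C, a class I myosin, by 1.43 on the log2 scale. MYO5B, a myosin of recycling endosomes, was the only heavy chain called higher. It was at 2.23 and 1.82 CPM in the shNSi cultures and at 3.98 and 4.98 CPM in the shDAP5 cultures, a log2 change of 1.14 ± 0.434 (adjusted p = 0.0328). This call was lost in 9 of 14 alternatives, namely without each of the 4 cultures in turn, with DESeq2, limma, no filter or all libraries in 1 fit, and with moderate counts added to the control.

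Of the mitotic kinesins 10 of 11 fell in heavy polysomes, against 16.7% of all genes and 35.3% to 50.1% of those in bins of coding length from 2000 to 6000 nucleotides, with a median log2 change of -1.27. KIF11 (GRCh38, chr10:92593286-92655395, plus strand), the motor that slides spindle microtubules apart, was at 154 and 285 CPM in the shNSi cultures and at 92.6 and 73.2 CPM in the shDAP5 cultures. Both silenced cultures were below both controls, and the log2 change was -1.40 ± 0.348 (adjusted p = 0.000886). KIF20B, a kinesin of cytokinesis, fell by 1.42 and KIF2C by 1.35 on the log2 scale. Of the transport kinesins 6 of 11 fell, led by KIF21A with a log2 change of -1.58 ± 0.341 (adjusted p = 0.000135) and KIF1B, a carrier of vesicles and mitochondria, with -1.34 ± 0.335 (adjusted p = 0.000951). KIF17, whose higher shNSi counts were part of its selection, is one of the 6. KIF5B, the ubiquitous conventional kinesin heavy chain, was at 614 and 475 CPM against 316 and 209 CPM, a log2 change of -1.05 ± 0.367 (adjusted p = 0.0197). The heavy polysome call was lost in 7 of 14 alternatives for KIF5B and in 5 for KIF11.

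Within the dynein complex the calls were lower for heavy and intermediate chains and higher for light chains. With the length offset, alone or with the replicate block, the median of the light chains turned to -0.27 and neither DYNLL1 nor DYNLRB1 was called. DYNC1H1, the cytoplasmic dynein heavy chain (GRCh38, chr14:101964510-102056443, plus strand), was at 272 and 626 CPM in heavy polysomes of the shNSi cultures and at 210 and 131 CPM in the shDAP5 cultures. The groups do not overlap, although the 2 controls differ by more than the lower control differs from the silenced cultures, and the log2 change was -1.39 ± 0.369 (adjusted p = 0.00197), a call lost in 6 of 14 alternatives. The intermediate chain DYNC1I2, which links the motor to dynactin, fell by 1.49, and the light intermediate chains DYNC1LI1 and DYNC1LI2, which bind cargo adaptors, fell by 0.94 and 0.82 on the log2 scale, calls lost in 7 and 8 of 14 alternatives. DYNLL1, by contrast, was at 103 and 101 CPM in the shNSi cultures and at 227 and 287 CPM in the shDAP5 cultures. This light chain rose with a log2 change of 1.33 ± 0.351 (adjusted p = 0.00179). DYNLRB1, the roadblock light chain, was at 91.0 and 88.5 CPM against 166 and 245 CPM, and rose with a log2 change of 1.20 ± 0.344 (adjusted p = 0.0043). DYNLT1 and DYNLT3, the Tctex-type light chains, had log2 changes of 0.74 and 0.49 with adjusted p-values of 0.0732 and 0.318. DYNLL2 was at 97.8 and 140 CPM against 117 and 138 CPM, overlapping values with a log2 change of 0.10 (adjusted p = 0.845). Of the chains of dynein 2, the motor of cilia, DYNC2H1 had a log2 change of -0.85 (adjusted p = 0.0683) and DYNC2LI1 one of 0.44 (adjusted p = 0.408).

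Heavy translation efficiency, taken within each culture as log2 of the heavy polysome level over the total level, separates loading onto polysomes from abundance. Of the 55 motor chains, 26 fell and 1 rose, against 13.1% of 15374 genes called, 8.23% lower and 4.85% higher. The calls covered 24 of 46 heavy chains (52.2%), all lower, 2 of 4 intermediate chains, both lower, and 1 of 5 light chains, higher. The median log2 change was -1.07 for heavy chains and 0.72 for light chains, beside 0.09 for all genes. Both silenced cultures lay below both controls in 36 of the 55 motor chains, against 28% of all genes, and above them in 6, against 32.2% of all genes. With library-size scaling or no culture term no motor chain and 0 of 15374 genes were called. With limma 7 motor chains were lower and 1 higher (757 of 15374 genes called). With the replicate block there were 13 and 0 (688 of 15374), and with the replicate numbers crossed 40 and 3 (4133 of 15374).

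The median of this log2 ratio over the 46 heavy chains was 0.44 and 1.23 in the shNSi cultures and 0.07 and -0.55 in the shDAP5 cultures. Over the 5 light chains it was -1.41 and -1.25 in the shNSi cultures and -0.75 and -0.21 in the shDAP5 cultures. For the heavy chains the 2 cultures of a line were further apart than shNSi replicate 1 was from shDAP5 replicate 1, and for the light chains the medians of both silenced cultures lay above those of both controls. Without shDAP5 replicate 2 or without shNSi replicate 2 no motor chain was called, without shNSi replicate 1 16 were called lower and 0 higher, and without shDAP5 replicate 1 39 were called lower and 4 higher. Of all genes, 43 of 15914, 4 of 15976, 572 of 15917 and 4515 of 15845 were called in the same order. When the moderate counts were added to the heavy control no motor chain and 0 of 15386 genes were called, and the median of the heavy chains was then -0.31.

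**Figure D2:**
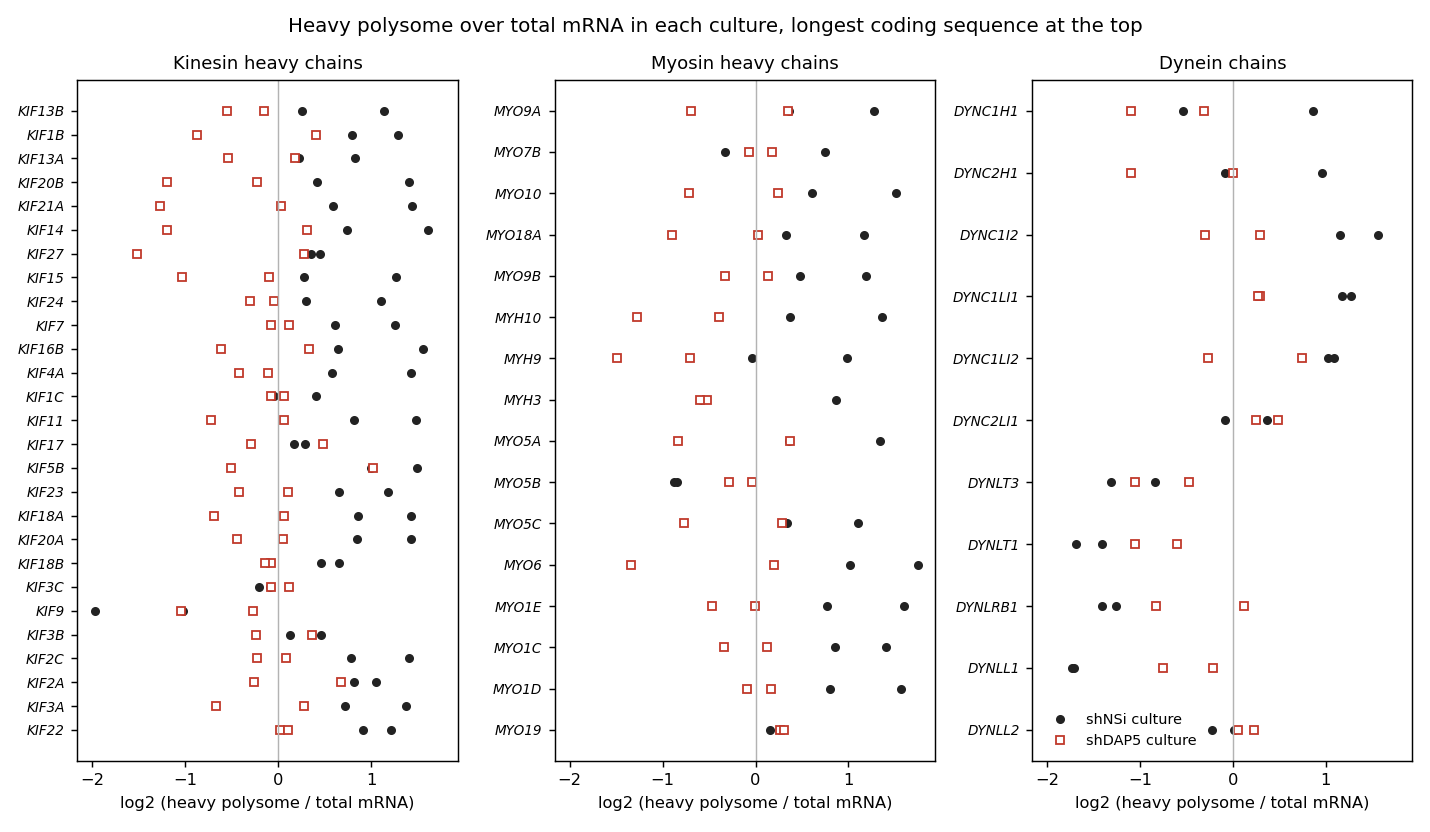
Heavy polysome over total mRNA, as a log2 ratio, in each culture, for kinesin heavy chains, 16 of the 17 myosin heavy chains and all dynein chains, ordered by coding length with the longest at the top (filled circles, shNSi cultures; open squares, shDAP5 cultures). For MYO6 and KIF11 both squares lie to the left of both circles, for DYNLL1 and DYNLRB1 both lie to the right, and the 2 cultures of a line are often more than 0.5 apart.

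Of the mitotic kinesins 10 of 11 were called lower, against 8.23% of all genes, and both silenced cultures were below both controls in 11 of 11, against 28%. Of all genes in the length bins from 2000 to 6000 nucleotides, which hold 10 of the 11, 21.2% to 33.7% were called lower. KIF11 had log2 ratios of 0.81 and 1.48 in the shNSi cultures and 0.06 and -0.72 in the shDAP5 cultures, a change of -1.47 ± 0.351 (SE, adjusted p = 0.00846). KIF20B changed by -1.63 ± 0.371 (adjusted p = 0.00824) and KIF14, a kinesin of the midbody, by -1.62 ± 0.425 (adjusted p = 0.019). KIF18A, which dampens chromosome movement at metaphase, fell by 1.46, KIF20A by 1.33, KIF4A, a chromokinesin, by 1.27, KIF2C by 1.17 and KIF23, part of centralspindlin, by 1.08. Of 15 alternatives, the call was lost in 5 for KIF18A, 7 for KIF20B, 8 for KIF11 and KIF14, 9 for KIF20A and KIF4A, and 10 for KIF2C and KIF23. The median total mRNA change of the 11 was 0.11, and none passed the test in total mRNA.

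Of the transport kinesins 5 of 11 fell, against 8.23% of all genes and 21.2% to 33.7% of those in the length bins from 2000 to 6000 nucleotides, and none of the 5 other kinesins passed. All 5 had an unadjusted p under 0.05, as did 4564 of 15374 genes, with 4 changes below 0 and that of KIF9 above. KIF21A changed by -1.62 ± 0.399 (adjusted p = 0.0115, lost in 7 of 15 alternatives), KIF1B by -1.27 ± 0.373 (adjusted p = 0.0238) and KIF16B, an endosome motor, by -1.24 ± 0.38 (adjusted p = 0.0281). The calls of KIF1B, KIF16B and KIF3A (below) were lost, among others, with the length offsets, library-size scaling, limma or no culture term. KIF5B had ratios of 1.00 and 1.49 in the shNSi cultures and 1.02 and -0.51 in the shDAP5 cultures, so that shDAP5 replicate 1 lay within the control values and replicate 2 far below them, and the change of -0.99 did not pass (adjusted p = 0.1). KIF1C, a fast vesicle motor, had overlapping ratios of -0.05 and 0.41 against -0.07 and 0.07 (adjusted p = 0.76). The kinesin-2 subunits KIF3A, KIF3B and KIF3C, singled out after their values were seen, had unlike changes, with -1.24 for KIF3A, called lower (adjusted p = 0.0238), -0.23 for KIF3B (adjusted p = 0.685) and 0.17 for KIF3C (adjusted p = 0.78), and the differences among them were not tested. Their non-motor partner KIFAP3 changed by -1.59 (adjusted p = 0.0075). KIF1BP, which is not a motor, fell by 1.06 on the log2 scale (adjusted p = 0.0307).

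Among myosins 9 of 17 fell, both non-muscle myosin II heavy chains among them, against 8.23% of all genes and 21.2% to 36.4% of those in the length bins from 2000 nucleotides up. MYO6 had the lowest value of all 55 motor chains, with log2 ratios of 1.01 and 1.75 in the shNSi cultures and 0.20 and -1.34 in the shDAP5 cultures. The groups do not overlap, and the change was -1.95 ± 0.419 (adjusted p = 0.00824). MYH10 changed by -1.70 ± 0.379 (adjusted p = 0.00792). MYH9 had ratios of -0.03 and 0.98 against -0.71 and -1.49, a change of -1.57 ± 0.397 (adjusted p = 0.0108), on top of its lower total mRNA. The class I myosins MYO1E, MYO1C and MYO1D fell by 1.43, 1.24 and 1.15 on the log2 scale. MYO10, the motor of filopodia, fell by 1.29. The call was lost in 5 of 15 alternatives for MYO6, 7 for MYH10 and MYO1E, 8 for MYH9, 9 for MYO10 and 10 for MYO1C. MYO9B, a class IX myosin, had a change of -0.93 (adjusted p = 0.0598). MYO19, a mitochondrial myosin, had nearly equal ratios of 0.27 and 0.16 in the shNSi cultures and 0.26 and 0.30 in the shDAP5 cultures, a change of 0.07 ± 0.331 (adjusted p = 0.908). MYO5B had ratios of -0.84 and -0.87 against -0.29 and -0.03, higher in both silenced cultures, but its change of 0.72 did not pass (adjusted p = 0.226), so its rise in heavy polysomes was not called once total mRNA was taken into account.

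In the dynein complex DYNC1I2 fell by 1.36 (adjusted p = 0.00997), a call lost in 5 of 15 alternatives, and DYNC1LI1 by 0.94 (adjusted p = 0.0485), a call lost in 12 of 15 alternatives. DYNC1LI2 and DYNC1H1 had changes of -0.82 and -0.87 that did not pass (adjusted p = 0.1 and 0.148). DYNC1H1 had ratios of -0.53 and 0.86 in the shNSi cultures and -0.32 and -1.09 in the shDAP5 cultures, so one silenced culture lay between the 2 controls. Its change was -0.20 without shNSi replicate 2, and it was called lower without shNSi replicate 1 (-1.57), without shDAP5 replicate 1 (-1.26) and with the replicate numbers crossed. DYNC2H1 changed by -0.98 (adjusted p = 0.0976) and DYNC2LI1 by 0.23 (adjusted p = 0.73). DYNLL1 had ratios of -1.73 and -1.71 in the shNSi cultures and -0.75 and -0.21 in the shDAP5 cultures, and was the only motor chain called higher, with a change of 1.24 ± 0.348 (adjusted p = 0.0179). That call was lost in 9 of 15 alternatives, the replicate block (adjusted p = 0.0843) and the fit without shNSi replicate 1 among them. DYNLRB1 changed by 0.98 ± 0.353 (adjusted p = 0.0566), DYNLT1 by 0.72 ± 0.338 (adjusted p = 0.141), DYNLT3 by 0.32 ± 0.358 (adjusted p = 0.589) and DYNLL2 by 0.25 ± 0.332 (adjusted p = 0.659).

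The pair with the printed coding sequences was singled out for its polysome values, so its difference is given as a description with no test. DYNLL1 minus DYNLL2, as the difference of their log2 ratios within a culture, was -1.51 and -1.73 in the shNSi cultures and -0.81 and -0.44 in the shDAP5 cultures. The values do not overlap, and the means of the lines are 0.99 apart. The annotated 3′ untranslated region is 6260 nucleotides long in DYNLL2 and 286 in DYNLL1.

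Across all genes the change in heavy translation efficiency ran with coding length, which bears on any comparison of heavy with light chains. The median log2 change was 0.88 for genes with coding sequences under 500 nucleotides, 0.54 from 500 to 1000, -0.05 from 1000 to 2000, -0.57 from 2000 to 3000, -0.75 from 3000 to 4000, -0.89 from 4000 to 6000 and -0.99 from 6000 up. The Spearman rank correlation with coding length was -0.71 across 12477 genes, -0.36 across the 55 motor chains and -0.11 across the 46 heavy chains, as a description across genes that share the same libraries. The light chains, with a median of 0.72, were close to the median of 0.88 for genes as short. Motor chains had a median of -0.94 from 1000 to 2000 nucleotides, where all genes were at -0.05, -0.86 from 2000 to 3000 nucleotides, -1.26 from 3000 to 4000, -1.07 from 4000 to 6000 and -0.98 from 6000 up.

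By call, 1 of 5 motor chains under 500 nucleotides was higher, against 35.3% of all genes of that length. From 1000 to 2000 nucleotides 3 of 5 were lower, against 4.31%, and from 2000 to 3000 5 of 12, against 21.2%. From 3000 to 4000 nucleotides 8 of 10 were lower, against 31.3%, from 4000 to 6000 8 of 16, against 33.7%, and from 6000 up 2 of 7, against 36.4%. With an offset for coding length fitted in each library, 4 motor chains were called lower, MYO6 and KIF18A among them, and 2 higher, KIF9 and MYO5B, and the median log2 change became -0.33 for heavy chains and -0.15 for light chains. Of all genes, 526 of 12477 were called with that offset, 307 of them lower. DYNLL1 then had a change of 0.31 (adjusted p = 0.499), and 4 of the 26 lower calls remained.

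**Figure D3:**
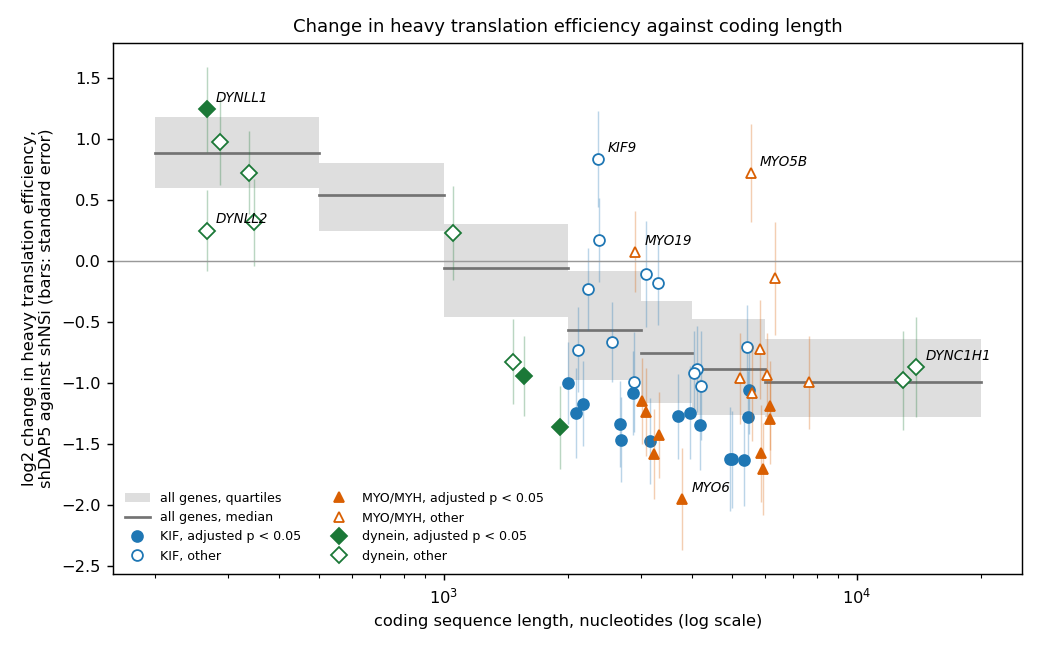
Log2 change in heavy translation efficiency against coding length on a log scale for the 55 motor chains, with standard errors and filled symbols for adjusted p under 0.05, over the quartiles (gray) and medians (lines) of all genes in bins of coding length. Most filled symbols lie in or below the gray band, DYNLL1 lies just above it, and KIF9 and MYO5B lie well above it.

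Light polysomes, by the study's definition 2 or 3 ribosomes, showed no called change in motor mRNAs with edgeR. None of the 55 passed in light polysomes or in light translation efficiency, where 0% of 15529 and 0% of 15967 genes did. At an unadjusted p under 0.05 there were 9 and 3 motor chains, and 1330 and 833 genes. DESeq2 called 105 and 0 genes, none of them a motor chain. The median log2 change in light polysomes was 0.11 for heavy chains and 0.04 for light chains. The largest values among mitotic kinesins were 0.81 for KIF20B (adjusted p = 0.526) and 0.71 for KIF20A (adjusted p = 0.571). With the shNSi moderate pool as the control, which shares its code with the shDAP5 light libraries, 5 motor chains were called lower and 6 higher, with 3940 of 15431 genes called. Without shNSi replicate 1 there were 5 lower and 13 higher in light polysomes, and 1 and 5 in light translation efficiency, and without shNSi replicate 2 there were 4 and 1 in light polysomes. In the same order, 4678 of 16190, 2030 of 16467 and 781 of 16193 genes were called.

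The position of each mRNA in the gradient of unsilenced cells was described by the ratio of heavy to light polysome mRNA in the shNSi cultures, from a fit of the 10 polysome libraries that shares its heavy and light controls with the comparisons above. Of the 55 motor chains, 39 were higher in heavy polysomes and 6 higher in light ones, against 64.4% of 16051 genes called, 31.7% toward heavy and 32.8% toward light. The share toward heavy polysomes was 36 of 46 for heavy chains, against 59.7% to 80.9% of all genes in the length bins from 2000 nucleotides up. The median log2 ratio was 2.04 for heavy chains, 2.44 for intermediate chains and -2.29 for light chains, beside -0.15 for all genes. With the length offset the heavy chain and light chain medians were much smaller in size, as given with the processing. The highest were MYH10 at 3.24, MYH9 at 3.12, MYO6 at 3.02 and MYO1D at 3.02. KIF20A at 2.73, KIF7, a regulator of Hedgehog signaling at the cilium tip, at 2.55, KIF14 at 2.46, KIF16B at 2.45 and KIF5B at 2.42 led the kinesins.

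Of the light chains DYNLT1, DYNLL1, DYNLRB1 and DYNLT3 sat in light polysomes, with log2 ratios of -2.35, -2.33, -2.29 and -1.60. Of all genes with coding sequences under 500 nucleotides, 91.9% were called toward light polysomes, and with the length offset none of the 4 chains was called and DYNLT3 was at 0.21. DYNLL2 did not, with a ratio of -0.31 (adjusted p = 0.401). With the length offset, alone or with the replicate block, it was called toward heavy polysomes in the shNSi gradient and lower in heavy polysomes of the shDAP5 cultures. With library-size scaling or limma it was called toward light polysomes in the shNSi gradient, as the other 4 were. Its levels were 163, 155 and 109 CPM in light, moderate and heavy polysomes of shNSi replicate 1 and 174, 143 and 167 CPM in those of replicate 2, nearly flat, where DYNLL1 dropped from 856 to 318 and 115 CPM in replicate 1 and from 436 to 134 and 120 CPM in replicate 2. A second exception was seen among long mRNAs. KIF9, a kinesin of motile cilia with a coding sequence of 2370 nucleotides, had a ratio of -1.99 (adjusted p = 2.89e-09) and MYO5B, with 5544 nucleotides, one of -1.15 (adjusted p = 0.00161). KIF9 shares part of its locus with KIF9-AS1 on the opposite strand, which had a ratio of -1.30, and reads of the 2 genes cannot be told apart if strand was not used in counting. KIF9 and MYO5B are also the 2 chains called higher in heavy translation efficiency with the length offset. The moderate pool does not enter the test of heavy translation efficiency. The log2 ratio of moderate to light was -1.87 and -1.75 for KIF9, 0.05 and -0.92 for MYO5B, and 0.16 and 0.61 for MYO6 in the 2 shNSi cultures.

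Of the 46 heavy chains 36 were called toward heavy polysomes in control cells, 2 toward light, and 8 were not called. With the length offset 29 motor chains were called toward heavy and 9 toward light, KIF3C, KIF27, MYH3 and MYO7B among the 9. Of all genes, 6845 of 12667 were called with that offset, 3305 of them toward light. The changes of the 36 in heavy translation efficiency ranged from -1.95 to -0.67 with a median of -1.21, and 24 of them were the heavy chains called lower. Those of the 8 ranged from -1.02 to 0.17 with a median of -0.16, and none was called. MYO19 had a heavy to light ratio of 0.57, KIF1C of 0.40, KIF17 of 0.08 and DYNLL2 of -0.31, none of which passed, and their changes in heavy translation efficiency were 0.07, -0.18, -0.11 and 0.25. With the length offset MYO19, KIF1C and KIF17 were called toward light and DYNLL2 toward heavy polysomes, and MYO19 was called toward heavy with DESeq2 and without shNSi replicate 2. Those with the steepest rise toward heavy polysomes, MYH10, MYH9, MYO6 and MYO1D, had changes between -1.95 and -1.15. The 2 measures share the shNSi heavy libraries, so these values are set side by side and no relation is drawn. The heavy to light ratio itself was lower in the shDAP5 cultures for 23 of the 55 motor chains and higher for 0, against 14% of genes called, 9.41% lower and 4.61% higher. All 23 are heavy chains, and 23.3% to 48.1% of genes in the length bins from 2000 nucleotides up were called lower.

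**Figure D4:**
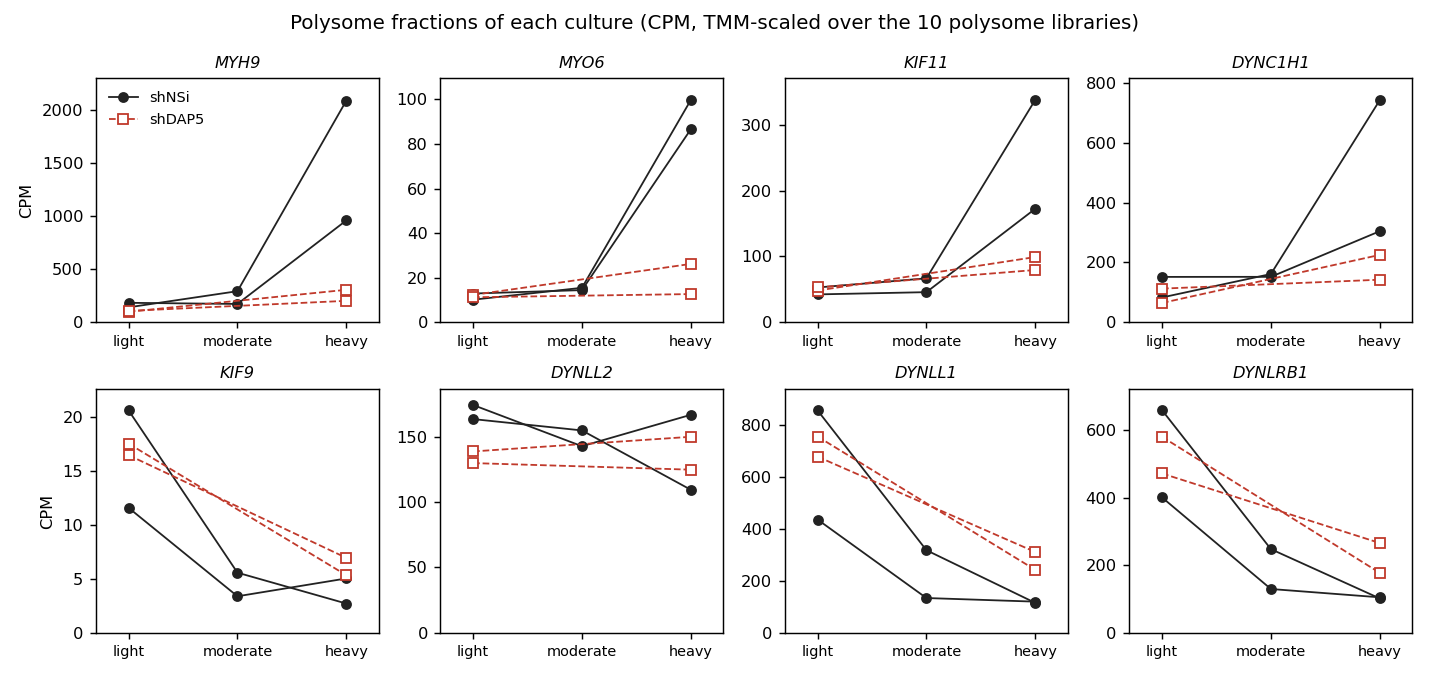
CPM of 8 motor genes in light, moderate and heavy polysomes of each culture (filled circles and solid lines, shNSi; open squares and dashed lines, shDAP5, for which no moderate library is included). MYH9, MYO6 and KIF11 climb more steeply to heavy polysomes in both shNSi cultures than in either shDAP5 culture, the slopes of DYNC1H1 overlap between the lines (log2 heavy over light of 1.01 and 3.17 against 1.81 and 0.34), DYNLL2 is nearly flat in both, DYNLL1 and DYNLRB1 decline toward heavy polysomes, and KIF9 is lower in heavy than in light polysomes of every culture, although in shNSi replicate 2 its heavy value lies above the moderate one.

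Partner genes were taken from a list of 43 genes outside the symbol rule, comprising 9 myosin light chain genes (calmodulins included), 8 kinesin light chains and adaptors, 4 further kinesins, 12 dynactin genes and 10 dynein regulators. In heavy polysomes 6 of the 43 fell and 8 rose, and in heavy translation efficiency 5 fell and 6 rose, beside 30.9% and 13.1% of all genes called in either direction. Of the 8 kinesin light chains and adaptors 1 fell and 0 rose in each of these comparisons, with a median change of -0.07 in heavy translation efficiency. Of the 9 myosin light chain genes 6 rose in heavy polysomes and 5 in heavy translation efficiency, with a median change of 1.04 in the latter, and none fell. Their coding sequences are 447 to 624 nucleotides long. Of all genes under 500 nucleotides, 58.8% rose in heavy polysomes and 35.3% in heavy translation efficiency, with a median of 0.88 in the latter, and of those from 500 to 1000 nucleotides 27% and 8.97%, with a median of 0.54. MYL6, the essential light chain of non-muscle myosin, was at 302 and 247 CPM in heavy polysomes of the shNSi cultures and at 568 and 753 CPM in those of the shDAP5 cultures. Both silenced cultures were above both controls, and its change in heavy translation efficiency was 1.08 ± 0.378 (adjusted p = 0.0494). The regulatory light chain MYL9 changed by 1.17 (adjusted p = 0.022) and MYL5 by 1.30 (adjusted p = 0.0332), calls lost in 9 of 15 and 10 of 14 alternatives. In heavy polysomes MYH9 and MYH10, the heavy chains of non-muscle myosin, thus fell while the light chains MYL6 and MYL9 rose. No partner passed in total mRNA.

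Of the 12 genes of dynactin, the cofactor of dynein, 1 was called lower and 1 higher in heavy translation efficiency, beside 13.1% of all genes called. DCTN1, the long p150 subunit with a coding sequence of 3834 nucleotides, changed by -1.55 in heavy translation efficiency (adjusted p = 0.0075), and DCTN3, a small subunit with 558 nucleotides, by 1.24 (adjusted p = 0.0165). The other 10 dynactin genes did not pass. KIFAP3, CENPE, the mitotic kinesin of the kinetochore, KIFC1, a minus-end directed kinesin, and BICD2, a dynein adaptor, were called lower, with changes of -1.59, -1.71, -0.98 and -0.98. Of 15 alternatives, the call was lost in 4 for KIFAP3, 7 for DCTN1, 8 for CENPE and 9 for DCTN3. With the length offset DCTN1 was at -0.78 (adjusted p = 0.0609), DCTN3 at 0.54 (adjusted p = 0.221), MYL6 at 0.28 (adjusted p = 0.571) and KIFAP3 at -1.07 (adjusted p = 0.0223).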

How the data were processed

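The authors deposited 1 table of raw counts, whole-number reads per gene symbol for 14 libraries, without normalization. The submitters' processing notes name STAR 2.6.0a, limma and hg19. The name of the deposited table mentions featureCounts and an abbreviation, rev, whose meaning is not explained. The strand setting, the annotation and the treatment of overlapping genes are not otherwise given in the sources used here. Symbols turned into dates included no motor gene.

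Counts were tested in R 4.3.3 with edgeR 4.0.16 (quasi-likelihood, robust, filterByExpr, TMM), with Benjamini-Hochberg adjustment over all genes tested and a threshold of 0.05. Total, heavy and light libraries were fitted by fraction (4 libraries), translation efficiency with culture, fraction and interaction terms (8 libraries), and the gradient over 10 polysome libraries. The units of fold changes are log2. The quasi-likelihood scripts were tested on simulated counts with 198, 192 and 194 genes changed by 1.5 in total mRNA, heavy translation efficiency and the shNSi gradient. They recovered 79.8%, 57.8% and 75.3% of these changes, and 5.95%, 5.93% and 3.95% of the calls were false. Genes that did not pass are thus not shown to be unchanged. Alternatives were DESeq2 1.42.0, limma 3.58.1 on quantile-normalized log2 of CPM plus 1, library-size scaling, other filters, a replicate block, length offsets, other pools as control, other sets of libraries and terms, and each culture left out. The crossed block and the comparison of gradients between lines were added after seeing the data.

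Genes are named by rule: EIF4G2, the dynein chains, the 6 most abundant kinesins and 6 most abundant myosins, the 5 lowest and 5 highest called of each per comparison, the genes next to the 50-count limit, and up to 3 partners each way. Others were named after their values were seen. The values of 1 gene are not reported here, although it enters the counts and medians. The members, lists and tests were chosen with earlier results of these data known. Coding lengths come from GENCODE v29 (18905 of 58432 symbols).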

Additional observations from a re-analysis of the deposited data

Results flagged for a closer look

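The ratio of heavy to light polysome mRNA was lower in the shDAP5 than in the shNSi cultures for 23 of the 55 motor chains and higher for 0, by an interaction term of edgeR, against 14% of 16051 genes called, 9.41% lower and 4.61% higher, and 39 had an unadjusted p under 0.05, as did 4467 of the 16051 genes. All 23 are heavy chains, 23 of 46, against 23.3% to 48.1% of all genes in length bins from 2000 nucleotides up. They include MYO6 with a log2 difference of -2.38, KIF20B with -2.27, MYH10 with -2.15, KIF14 with -2.12, KIF21A with -2.11 and KIF18A with -2.02. Of the light chains DYNLRB1 had 1.02 (adjusted p = 0.172) and DYNLL1 0.95 (adjusted p = 0.224), and their median was 0.52. DESeq2 called 28 lower, 22 of them among the 23. The comparison uses the heavy libraries of the report again. With the length offset 3 were lower and 1 higher, with the offset and replicate block 2 and 1, without shDAP5 replicate 2 none was lower, and without shNSi replicate 2 11 were. Of all genes, 452 of 12667, 261 of 12667, 2 of 16712 and 969 of 16626 were called in the same order, and 2399 of 16051 with DESeq2.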

How the results depend on the processing

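The direction of the heavy chain and light chain medians, and the counts of calls, were recomputed under each alternative. In total mRNA 1 motor chain was called lower, 0 with all libraries in 1 fit, the length offset, library size or limma, 2 with no filter, and 0 to 1 without single cultures, where the 1 without shNSi replicate 2 was KIF17 and not MYH9. In heavy polysomes 34 were lower and 3 higher. With the length offset 5 were lower and 2 higher, and with the length offset and replicate block 11 and 4. With library size 14 were lower and 4 higher, and with moderate counts added to the control 2 and 0. Of all genes, 1467 of 12133, 2996 of 12133, 3643 of 14270 and 421 of 15184 were called in the same order. Without single cultures there were 0 to 36 lower and 0 to 2 higher. In heavy translation efficiency 26 were lower and 1 higher. With the length offset, alone or with the replicate block, there were 4 lower and 2 higher, with limma 7 lower, with at least 10 counts in every library 2 higher, and with library size, moderate counts added or no culture term 0 lower and 0 higher. Without single cultures there were 0 to 39 lower and 0 to 4 higher. The cause was not tested. For library size the median of all genes was 0.34 in heavy polysomes (0.09 with TMM) and 0.30 in heavy translation efficiency (0.09), and 1139 of 3643 heavy polysome calls were lower, against 2390 of 4414. With limma 307 of 757 heavy translation efficiency calls were lower, against 1266 of 2012, and with DESeq2 1536 of 2127.

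Across genes, same-numbered cultures did not deviate together in total mRNA (r = -0.10) or in heavy and light polysomes (r = 0.05 in each). In heavy and light translation efficiency r was -0.20 and -0.02. With so few cultures, a low r cannot show whether same-numbered cultures were handled together, and the labels do not say. Whether the numbers pair the cultures is therefore not known. With the replicate block heavy translation efficiency had 13 lower and 0 higher, and with the numbers crossed 40 lower and 3 higher. Of 15374 genes, 688 (519 lower) and 4133 (2375 lower) were called.

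The median of heavy chains in heavy translation efficiency was -1.07, -0.33 with length offsets (with or without the block), -0.31 with moderate counts added, and -1.51 to -0.77 without single cultures. That of light chains was 0.72, reversed to -0.15 with both length offsets, 0.36 with moderate counts added, and 0.50 to 0.95 without single cultures. In heavy polysomes the light chain median was -0.27 with both length offsets, and in light polysomes -0.28 to 0.51 without single cultures, lowest without shNSi replicate 2. In the shNSi gradient the medians were 0.67 for heavy and -0.23 or -0.24 for light chains with the length offset alone or with the block, 1.63 to 2.38 and -2.53 to -1.88 without single cultures. With the moderate pool as light control, light polysomes and light translation efficiency each had 5 lower and 6 higher, and the light translation efficiency median of heavy chains was -0.10. Of all genes, 3940 of 15431 were called in light polysomes and 4367 of 15859 in light translation efficiency with that control. Without single cultures there were 0 to 5 lower and 0 to 13 higher in light polysomes, and 0 to 1 and 0 to 5 in light translation efficiency. For the gradient compared between lines, where 23 were lower, there were 3 lower and 1 higher with the length offset, 2 and 1 with the offset and block, 14 lower with the block, 0 to 31 without single cultures, and a light chain median of -0.22 with both offsets.

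Single genes turned sign in heavy translation efficiency with the length offset, DYNC1H1 to 0.22, DYNC2H1 to 0.078, DYNC2LI1 to -0.0024, DYNLL2 to -0.68, DYNLT1 to -0.15, DYNLT3 to -0.54, KIF17 to 0.58 (0.54 with the block) and KIF1C to 0.53, with the other values equal to 2 decimals under the block. KIF17 was at 0.094 and KIF1C at 0.030 with library size, KIF1C at 0.078 with limma, and DYNC2LI1 at -0.019 and EIF4G2 at -0.057 with moderate counts added. Without single cultures KIF17 ranged up to 0.26 (without shDAP5 replicate 1), KIF9-AS1 from -0.30 (without shDAP5 replicate 1) to 0.66, DYNC2LI1 from -0.023 to 0.45, KIF1C from -0.42 to 0.020 and MYO19 from -0.0083 to 0.12, the low end for DYNC2LI1 and MYO19 and the high end for KIF1C without shNSi replicate 2. In the shNSi gradient DYNC2H1 was at -0.23 and DYNLT3 at 0.21 with the length offset (-0.21 and 0.21 with the block). Precision is limited by the 2 cultures per line and, for genes of few counts such as KIF17 and KIF9-AS1, also by depth.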
